A study of Mus musculus with 3 samples.

Results

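The cells described here are 2125 lung cells that the deposited annotation names MyoFB-Int, the intermediate of its 3 myofibroblast types, from the 2 sorted libraries with high Pdgfra reporter signal. They were chosen by that annotation alone and are 2125 of the 6142 cells of the series: 801 cells from the GFP-high tdT-high library and 1324 from the GFP-high tdT-negative library. All pups carried Fgf18CreERT2/+, ROSATDTomato/+ and PdgfrαEGFP/+, so that both sides of the comparison share every allele, received tamoxifen from postnatal day 2 to day 5 and were collected on day 7. tdTomato marks cells in which a recombinase driven from the Fgf18 locus was active under tamoxifen, together with their descendants. Labelled and unlabelled cells have the same inherited genotype. How completely such cells were labelled was not measured, so an unlabelled cell may also have had an active Fgf18 locus. The labels do not tell from how many pups each library was made. The comparison asks what the Fgf18 lineage label separates within 1 named cell type.

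Alveolar myofibroblasts appear in the lung around birth, carry the receptor PDGFRA, and lay down the elastic fibres along which the walls of new alveoli form. Fgf18 encodes a secreted fibroblast growth factor that lung mesenchyme makes during this period. Elastic fibres consist of an elastin core deposited on fibrillin microfibrils, and lysyl oxidases crosslink the elastin.

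Each side is 1 library, so there is no replicate, no test was run, and no difference below has been checked against the spread between animals or sorts. Values are UMIs per 1e6 UMIs summed over the cells of a library (CPM), and 95% intervals reflect counting error alone. The tdT-high cells held 18256846 UMIs, with a median of 22244 per cell, and the tdT-negative cells 26955486, with a median of 19459.5. Mitochondrial genes took 3.40% of the UMIs in tdT-high and 2.75% in tdT-negative cells, and ribosomal protein genes 7.37% and 9.16%. The sequence listed as Rn18s-rs5 stood at 53549 CPM in tdT-high and 27227 CPM in tdT-negative cells, and it was higher by a like amount in the other myofibroblast types of the same library (log2 ratios of 0.98 in MyoFB-Int, 0.84 in MyoFB-IMR and 1.06 in MyoFB-Ter). No barcode was shared by the 2 groups of MyoFB-Int cells. The myofibroblast label fits the defining genes: after each cell was thinned to 5000 UMIs, Acta2, smooth muscle actin, was seen in 88.1% of the unlabelled (tdT-negative) and 77.5% of the labelled (tdT-high) cells, and in 95.6% and 91.9% without thinning. In AdvFB cells of the tdT-negative library, an adventitial fibroblast type that should lack Acta2, the thinned share was 9.76%. The median depth of those AdvFB cells was 24677.5 UMIs. All 15 of the listed myofibroblast markers were detected on both sides. In tdT-high cells 3 of them were at least 1.5-fold higher (Aspn, Hhip and Lgr6) and 5 lower (Acta2, Pdgfra, Stc1, Nes and Htra1). Over all genes 3.37% were higher and 2.69% lower. The median log2 ratio of the markers was -0.29, and their summed level was 21062 CPM in tdT-negative and 18287 CPM in tdT-high cells.

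The 2 libraries fill the type differently. In a Leiden clustering of all cells at resolution 1, clusters 4, 13 and 16 held 76.4% of the tdT-high MyoFB-Int cells and 26.9% of the tdT-negative ones. Clusters 10, 11 and 12 held 238, 199 and 280 tdT-negative cells but 38, 17 and 63 tdT-high cells. Every value over the whole type therefore compares mixtures of clusters, and values within single clusters are given further on.

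The reporter transcripts followed the gate for tdTomato. TDT, the tdTomato transcript, stood at 6.05 CPM in tdT-negative and 64.1 CPM in tdT-high cells, a ratio of 10.6 (95% interval 8.99 to 12.6). After thinning its share of cells was 2.42% in the tdT-negative and 24.2% in the tdT-high library, against 0.61% in AdvFB cells of the tdT-negative library, and without thinning in 9.37% and 63.5%. Gt(ROSA)26Sor, the noncoding gene at the ROSA locus that carries the reporter (chromosome 6, 113067428 to 113077333, GRCm38), was 8.42-fold higher (7.38 to 9.64), at 81.5 against 9.68 CPM. Its neighbours did not share that difference: Thumpd3 had a ratio of 1.16 and Setd5 of 0.851. Fgf18, the source of the label (chromosome 11, 33117430 to 33147400), stood at 70.4 CPM in tdT-negative and 101 CPM in tdT-high cells, a ratio of 1.43 (1.34 to 1.53). CreERT2, the recombinase transcript placed at that locus, had the same ratio of 1.43 (1.28 to 1.60), at 23.8 and 34.1 CPM. After thinning, Fgf18 was seen in 26.7% of tdT-negative and 37.3% of tdT-high MyoFB-Int cells (unthinned 58.8% and 73.9%), against 0.915% of the AdvFB cells. For CreERT2 these shares were 11.5% and 15.5% (unthinned 31.6% and 45.6%), against 0.61%.

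Within the GFP-high gate, the tdT-high cells had the lower level of the Pdgfra reporter. H2BGFP, its transcript, stood at 177 CPM in tdT-negative and 85.2 CPM in tdT-high cells, 2.07-fold lower (1.96 to 2.19). Pdgfra itself (chromosome 5, 75152292 to 75198215) stood at 390 and 252 CPM, 1.55-fold lower (1.50 to 1.60). Both genes were lower in tdT-high cells of all 3 myofibroblast types, and within the 4 largest clusters of MyoFB-Int the log2 ratio of Pdgfra lay between -0.16 and 0.08.

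Over all 11147 genes with a mean of at least 5 CPM, 376 were at least 1.5-fold higher in tdT-high cells (3.37%) and 300 at least 1.5-fold lower (2.69%), together 6.06%, and the median log2 ratio was -0.07. The log2 ratio is that of CPM plus a pseudocount of 1. Of these genes, 127 were 2-fold higher and 66 were 2-fold lower. Among the 3750 abundant genes, with a mean of 50 CPM or more, 92 were higher (2.45%) and 79 lower (2.11%), together 4.56%. Among the 7397 genes of modest level, with a mean of 5 to 50 CPM, 284 were higher (3.84%) and 221 lower (2.99%), together 6.83%. Genes counted as higher had a median genomic span of 48.8 kb, those counted as lower 30.5 kb, and the remaining genes 26.4 kb.

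**Figure D1:**
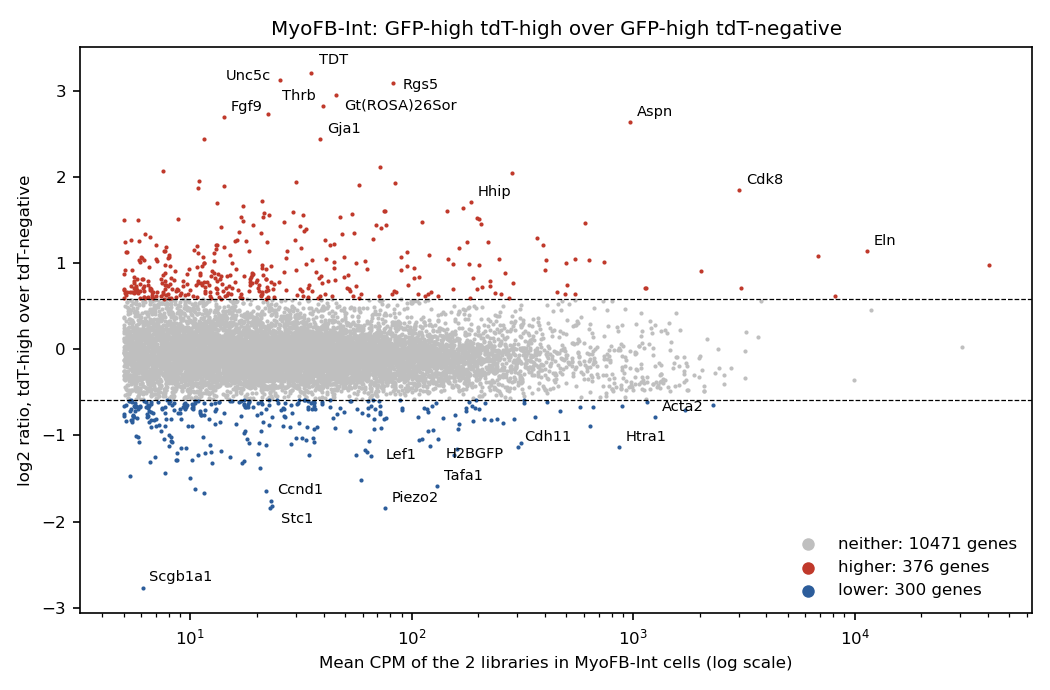
Each point is 1 of 11147 genes in MyoFB-Int cells, with its mean CPM over both libraries on a log axis and its log2 ratio of tdT-high over tdT-negative cells; dashed lines mark 1.5-fold. Red points are the 376 genes counted as higher and blue points the 300 counted as lower, and both spread widest at modest levels.

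Ranks within a level tier leave out transgenes, mitochondrial, ribosomal protein and haemoglobin genes, Xist, Tsix and Y-linked genes, and unnamed genes such as Gm and Rik entries. Among abundant genes the highest ratio was that of Rgs5, a regulator of G protein signalling best known from pericytes (16.5 CPM in tdT-negative and 147 CPM in tdT-high cells, 8.95-fold, 8.09 to 9.91). Aspn, a small leucine-rich proteoglycan, followed at 268 and 1673 CPM (6.23-fold, 6.07 to 6.39). Fhod3, a formin that assembles actin filaments, stood at 26.5 and 118 CPM, and Fat3, a giant protocadherin, at 34.6 and 134 CPM. Ak5, Cacna2d3, Plpp3, Postn, Col14a1 and Prss12 were each between 3.04-fold and 3.85-fold higher, and Hhip, a Hedgehog-binding inhibitor, 3.28-fold. The lowest abundant genes were Piezo2, Tafa1 (197 and 64.6 CPM), Zmat4, Cygb, Cd34, Dab1, Chn2, Htra1, Cdh11, Col24a1, Aldh2 and Aard, each at least 2-fold lower in tdT-high cells. Cdk8 was also in the range of the highest genes, at 1314 and 4729 CPM, but it was as far apart in every type compared: the ratio was 3.60 in MyoFB-Int, 3.43 in MyoFB-IMR and 4.04 in MyoFB-Ter.

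The region before the transcription start of 4 of the higher genes is shown because these genes were higher together in every one of the 4 largest clusters. Aspn, Rgs5, Gja1 (connexin 43) and Hhip are given as the 250 bases before the RefSeq start on GRCm38.p6, 5′ to 3′ on the gene's strand. Capitals mark matches on either strand to the core promoter motif TATAAA, the TCF/LEF motif CTTTGA, the PEA3 motif AGGAAG of ETS factors, the CCAAT box, or the CArG box bound by SRF. The Aspn window is chr13:49544193-49544442 (plus strand), Rgs5 chr1:169655251-169655500 (plus), Gja1 chr10:56377050-56377299 (plus) and Hhip chr8:80058009-80058258 (minus).
Aspn: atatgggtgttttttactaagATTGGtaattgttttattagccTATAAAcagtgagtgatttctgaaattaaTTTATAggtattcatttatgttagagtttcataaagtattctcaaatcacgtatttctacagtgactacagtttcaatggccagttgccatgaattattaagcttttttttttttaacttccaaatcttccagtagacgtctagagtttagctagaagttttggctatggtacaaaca
Rgs5: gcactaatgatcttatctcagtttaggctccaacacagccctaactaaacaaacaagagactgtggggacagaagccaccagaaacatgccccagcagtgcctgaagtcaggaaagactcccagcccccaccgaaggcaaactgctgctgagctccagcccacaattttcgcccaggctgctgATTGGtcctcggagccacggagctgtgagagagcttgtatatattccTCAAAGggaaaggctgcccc
Gja1: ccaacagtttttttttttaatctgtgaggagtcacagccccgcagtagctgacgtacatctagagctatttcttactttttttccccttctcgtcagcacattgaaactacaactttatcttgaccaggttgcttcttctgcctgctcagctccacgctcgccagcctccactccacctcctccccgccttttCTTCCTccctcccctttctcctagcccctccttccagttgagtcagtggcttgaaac
Hhip: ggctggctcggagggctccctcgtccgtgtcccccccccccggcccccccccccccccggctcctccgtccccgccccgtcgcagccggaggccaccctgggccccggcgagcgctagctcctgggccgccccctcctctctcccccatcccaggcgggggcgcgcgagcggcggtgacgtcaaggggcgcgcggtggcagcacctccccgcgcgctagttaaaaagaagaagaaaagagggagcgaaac
The Aspn window held 2 TATA matches and 1 CCAAT match, the Rgs5 window 1 TCF/LEF and 1 CCAAT match, the Gja1 window 1 PEA3 match and the Hhip window none. Of all 32851 RefSeq windows of this length, 12.4% held TATAAA, 13.8% CTTTGA, 29.5% AGGAAG, 33.8% CCAAT and 1.47% a CArG box. Windows of the genes counted as higher held TATAAA in 8.41% of cases and those of genes counted as lower in 7.28%, against 6.34% over all counted genes. These matches describe letters in a window and no binding was measured.

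Counts for each gene list and marker list below stand against 3.37% of all genes 1.5-fold higher and 2.69% lower. Of 20 counted elastic fibre genes 7 were 1.5-fold higher and 0 lower, with a median log2 ratio of 0.40 against -0.07 over all genes. Eln, elastin (chromosome 5, 134702593 to 134747323), stood at 7131 CPM in tdT-negative and 15714 CPM in tdT-high cells (2.20-fold, 2.19 to 2.22). Mfap5, a microfibril-associated glycoprotein of modest level, stood at 11.9 and 48.4 CPM (4.08-fold, 3.59 to 4.65). Mfap4, another microfibril protein, was 2.07-fold higher at 162 and 334 CPM. The crosslinking enzymes Lox (73.3 and 131 CPM) and Loxl1 (219 and 331 CPM) and the latent TGF-beta binding proteins Ltbp1 (35.1 and 63.5 CPM) and Ltbp4 (94.5 and 150 CPM) made up the rest. The fibrillin genes were level: Fbn1, fibrillin 1, stood at 797 and 757 CPM and Fbn2 at 196 and 200 CPM.

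Of 19 counted collagens 6 were higher and 0 lower, with a median log2 ratio of 0.35. The fibril-forming Col1a1 (865 and 1416 CPM) and Col3a1 (2328 and 3810 CPM) were each 1.64-fold higher, and Col12a1, which coats fibrils, 2.37-fold (131 and 310 CPM). Col14a1 (37.2 and 115 CPM), of the same fibril-associated family, was 3.09-fold higher, and Col15a1 and Col16a1 were also counted as higher. Among 19 counted enzymes and chaperones of collagen folding 0 passed 1.5-fold in either direction, and their median log2 ratio was 0.00.

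Of 8 small leucine-rich proteoglycans, which bind collagen fibrils and growth factors, 4 were higher and 1 lower. Beside Aspn these were Ogn (58.4 and 164 CPM), Omd (4.12 and 13.5 CPM) and Podn (14.1 and 28.1 CPM), while Fmod, fibromodulin, stood at 7.16 and 3.61 CPM. Aspn, Omd and Ogn lie near each other on chromosome 13, with Aspn starting at 49544443 and Ogn ending at 49624501. Of 14 matricellular genes 7 were higher and 0 lower: Postn (36.6 and 113 CPM), Vcan (36.6 and 101 CPM), Tnxb (22.9 and 47.9 CPM), Thbs1 (376 and 632 CPM), Thbs2, Thbs3 and Fn1. Among 22 matrix proteases and inhibitors 4 were higher, led by the versican-cleaving proteases Adamts8 (30.4 and 79.1 CPM) and Adamts5 (9.09 and 23.3 CPM), and 1 was lower, the inhibitor Timp1. Htra1, a secreted serine protease, lay outside that list and went the other way, at 1190 and 540 CPM (2.20-fold lower, 2.15 to 2.25).

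Of 15 counted basement membrane genes 1 was higher, the perlecan gene Hspg2 (34.1 and 52.8 CPM), and 4 were lower. These were the laminin chain Lamc3 (15.5 and 6.08 CPM, 2.56-fold lower), the nidogen Nid2 (18.1 and 10.4 CPM), and Frem1 (1.65-fold lower) and Fras1, which form 1 complex beneath epithelia. The median log2 ratio of the list was -0.12. Each of the 4 lower genes had the opposite sign in at least 1 of the 4 largest clusters: the log2 ratio was 0.15 for Lamc3 and 0.25 for Nid2 in cluster 13, 0.34 for Frem1 in cluster 16, and 0.31 and 1.34 for Fras1 in clusters 4 and 16.

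**Figure D2:**
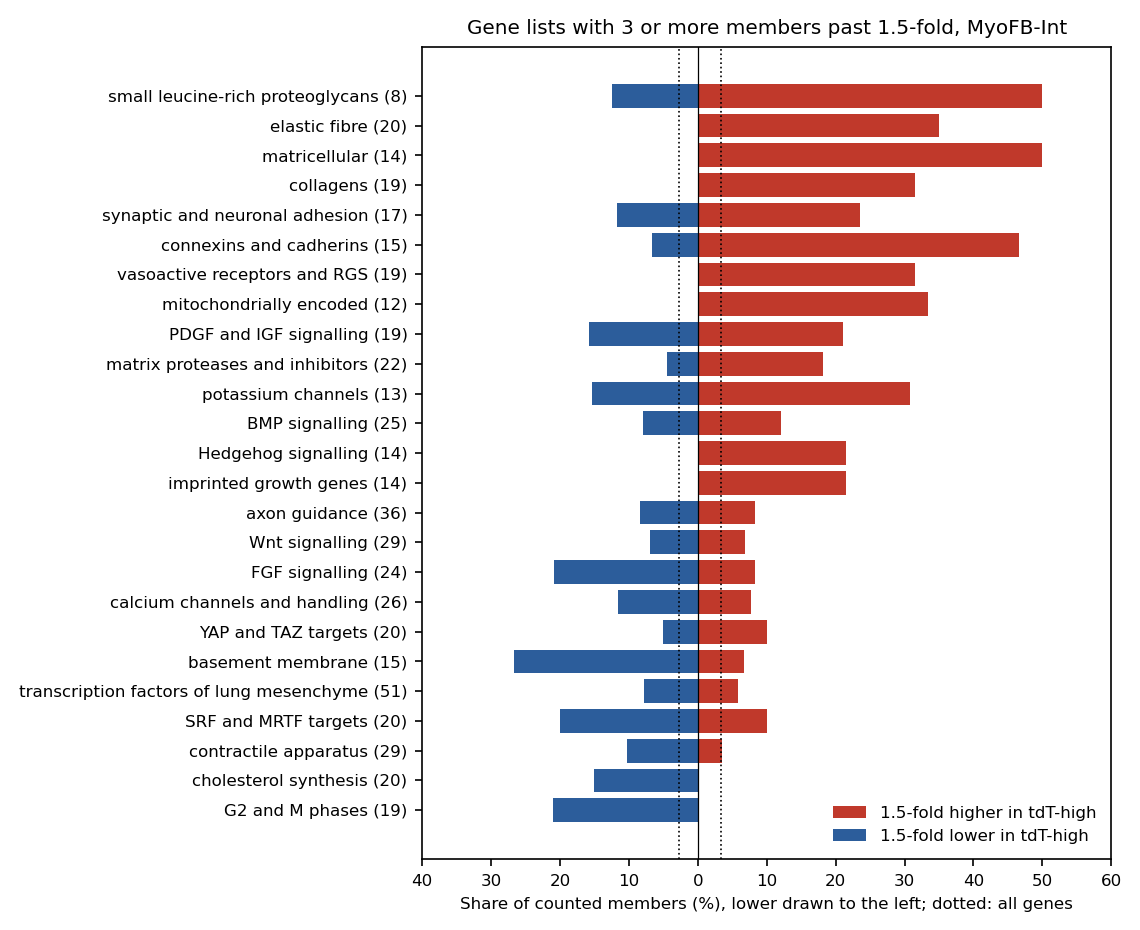
Bars give, for each gene list with 3 or more members past 1.5-fold, the percent of counted members (their number in parentheses) that were higher in tdT-high MyoFB-Int cells to the right and lower to the left, ordered by the list's median log2 ratio; dotted lines mark 3.37% and 2.69% over all genes. Proteoglycan, elastic fibre, matricellular and collagen lists lie at the top and contractile, cholesterol and cell cycle lists at the bottom.

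Of 29 counted contractile genes 1 was higher, near the share of 3.37% over all genes, and 3 were lower, where 2.69% of all genes were. The median log2 ratio was -0.28, against -0.07 over all genes. Acta2 stood at 1596 CPM in tdT-negative and 923 CPM in tdT-high cells (1.73-fold lower, 1.70 to 1.76), Actn1, an actin crosslinker, at 239 and 148 CPM, and Cnn2, a calponin, at 146 and 89.5 CPM. Tagln, transgelin, had a log2 ratio of -0.47 and did not reach 1.5-fold, and Myh11, smooth muscle myosin, stood at 884 and 722 CPM. The higher member was Fhod3. The summed level of the smooth muscle markers was 2562 CPM in tdT-negative and 2380 CPM in tdT-high cells. Among 20 targets of SRF and its MRTF cofactors 4 were lower, namely Acta2, Cnn2 and the cytoplasmic actins Actb (2817 and 1793 CPM) and Actg1 (826 and 447 CPM). Flnc, a filamin, and Myocd, the muscle-specific cofactor of SRF (90.3 and 139 CPM, 1.54-fold, 1.46 to 1.63), were the 2 that stood higher. Summed over the tdT-high MyoFB-Int cells, Myocd was thus higher and Acta2 lower. Whether the same cells held more Myocd and less Acta2 was not tested.

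Fgf9, a second FGF ligand, stood at 3.08 CPM in tdT-negative and 25.4 CPM in tdT-high cells (8.25-fold, 6.52 to 10.6), and was seen after thinning in 0.98% and 9.36% of cells, against 0.61% of AdvFB cells (unthinned 3.70% and 21.0%). Of 24 counted FGF genes 2 were higher, Fgf9 and the transmembrane partner Flrt2, and 5 were lower, with a median log2 ratio of -0.01. Etv1, Etv4 and Etv5 are ETS factors induced by FGF receptors through ERK, and Spry4 is a feedback inhibitor of the same pathway. Other response genes on the list, among them Spry1, Spry2 and Dusp6, were counted neither as lower nor as higher. Etv1 stood at 333 and 184 CPM (1.81-fold lower, 1.74 to 1.88), Etv4 at 17.2 and 7.39 CPM, Etv5 at 27.5 and 16.7 CPM and Spry4 at 25.4 and 14.5 CPM. The receptor Fgfr4 stood at 12.8 and 5.26 CPM, while Fgfr1 was level at 180 and 181 CPM.

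Wnt genes showed no common direction, with 2 of 29 higher and 2 lower. Lgr6, a receptor for R-spondins, stood at 102 and 294 CPM (2.90-fold, 2.77 to 3.04) and the ligand Wnt9a at 29.3 and 60.1 CPM. Lef1, the nuclear partner of beta-catenin, stood at 146 and 69.8 CPM (2.09-fold lower, 1.96 to 2.23) and Notum, a secreted inhibitor that removes the lipid of Wnt ligands, at 14.9 and 5.53 CPM. Axin2, a widely used target gene, had a log2 ratio of 0.38 and passed in neither direction.

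Of 14 Hedgehog genes 3 were higher and 0 lower. Hhip stood at 86.4 and 284 CPM (3.28-fold, 3.13 to 3.45), and its relative Hhipl1 and the coreceptor Cdon were higher at levels below 10 CPM. The usual readouts differed less than 1.5-fold: Gli1 stood at 26.7 and 37.7 CPM, and Ptch1 at 277 and 269 CPM. Hhip is itself known as a Hedgehog target. It was 3.28-fold higher, while Gli1 was higher by less than 1.5-fold and Ptch1 was level. Whether Hedgehog activity differed was not tested.

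Growth factor genes of the PDGF and IGF families went both ways, with 4 of 19 higher and 3 lower. The ligands Pdgfd (23.9 and 71.2 CPM) and Pdgfc (4.38 and 10.9 CPM) were higher where the receptor gene Pdgfra was lower. Pappa2, a protease that frees IGFs from their binding proteins, stood at 103 and 205 CPM. Stc1, stanniocalcin 1, which inhibits such proteases, was among the lowest of all genes of modest level, at 37.1 and 9.80 CPM (3.79-fold lower, 3.23 to 4.47). Among 25 BMP genes 3 were higher, Gdf10, Id4 and the antagonist Nog (9.68 and 16.5 CPM), and 2 were lower, the ligand Bmp2 (34.4 and 19.4 CPM) and the antagonist Nbl1. Of 25 TGF-beta genes 2 were higher, which were Ltbp1 and Ltbp4 again.

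Of 19 counted vasoactive receptor and RGS genes, which set vascular tone, 6 were higher and 0 lower, with a median log2 ratio of 0.27, where 3.37% of all genes were higher: Rgs5, Rgs16, the endothelin-converting enzyme Ece1 (25.7 and 48.5 CPM), and the prostaglandin E2 receptors Ptger2 (2.26-fold), Ptger3 (9.94 and 20.9 CPM) and Ptger4 (7.72 and 13.6 CPM). Ptges, a synthase of prostaglandin E2, was lower, at 30.4 and 11.1 CPM (2.75-fold lower, 2.35 to 3.22). Pde4d, which degrades cyclic AMP, stood at 105 and 300 CPM. After thinning, Rgs5 was present in 5.89% of unlabelled and 30.5% of labelled cells (unthinned 11.6% and 47.7%), against 4.88% of AdvFB cells. Of 10 counted pericyte markers 3 were higher (Rgs5, Kcnj8 and Postn) and 1 lower (Trpc6), with a median log2 ratio of 0.33. The summed level of the listed pericyte markers was 452 CPM in tdT-negative and 573 CPM in tdT-high cells. The other counted markers differed by less than 1.5-fold and went both ways. Abcc9, Cspg4 and Cox4i2 stood higher in tdT-high cells. Gucy1a1 and Pdgfrb (87.3 and 72.6 CPM) stood lower, and Notch3 was near level at 12.9 and 12.3 CPM. Higd1b, too low to be counted, stood at 1.93 and 0.383 CPM.

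Ion channel genes differed one by one. Of 13 potassium channel genes 4 were higher, among them Kcnma1, the large-conductance calcium-activated channel (64.1 and 126 CPM), and the KATP subunit Kcnj8 (10.4 and 19.7 CPM), and 2 were lower, Kcnk2 (58.8 and 30.8 CPM) and Kcnip1. Among 26 calcium channel and handling genes 2 were higher and 3 lower. Cacna2d3, an auxiliary subunit, stood at 82.3 and 258 CPM (3.13-fold, 2.98 to 3.30) and the T-type pore Cacna1g at 32.6 and 57.6 CPM. Piezo2, a mechanically gated channel, was the lowest of the abundant genes, at 119 CPM in tdT-negative and 32.5 CPM in tdT-high cells (3.67-fold lower, 3.36 to 4.01). The L-type pore Cacna1d (45.1 and 21.2 CPM) and Trpc6 (95.3 and 50.0 CPM) were lower with it.

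Of 15 counted connexins, cadherins and catenins 7 were higher and 1 lower. Gja1, connexin 43, which forms gap junctions between contractile cells, stood at 11.4 and 66.0 CPM (5.81-fold, 5.12 to 6.61) and was seen after thinning in 4.83% and 21.1% of cells, against 8.23% of AdvFB cells (unthinned 11.3% and 42.7%). The thinned share in tdT-negative cells was below that in the AdvFB cells, and the part of free RNA in it was not tested. Cdh4, R-cadherin, stood at 110 and 303 CPM and Cdh18 at 10.2 and 25.7 CPM. Cdh11, a cadherin of mesenchymal cells, was the lower member, at 417 and 189 CPM (2.20-fold lower, 2.12 to 2.29). Among 36 axon guidance genes 3 were higher and 3 lower, with Ntn1, netrin 1 (75.7 and 163 CPM), and its receptor Unc5c (4.45 and 46.6 CPM, 10.5-fold, 8.63 to 12.8) on one side, and Sema3a (11.6 and 4.98 CPM) and its coreceptor Plxna2 (212 and 116 CPM) on the other.

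Of 51 transcription factors of lung mesenchyme 3 were higher and 4 lower, where 3.37% and 2.69% of all genes were, and the list's median log2 ratio was -0.12. Tbx5, which is needed to form the lung, was level at 225 and 204 CPM. Prrx1, a homeobox gene of mesenchyme, stood at 5.45 and 22.9 CPM (4.20-fold, 3.47 to 5.10), while its paralogue Prrx2 stood at 21.0 and 11.0 CPM. Gata6 and Sox9 were higher, and Runx2 (16.6 and 6.63 CPM), Sox6 and Sox11 (89.8 and 53.9 CPM) lower. Scx, scleraxis, a tendon factor that was not on the list, stood at 3.90 and 18.0 CPM (4.61-fold, 3.69 to 5.80). Thrb, a thyroid hormone receptor, stood at 9.13 and 70.7 CPM (7.74-fold, 6.75 to 8.91), and Rarb, a retinoic acid receptor, at 59.3 and 131 CPM.

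Among 19 counted genes that peak in G2 or mitosis, 4 were lower and 0 higher, with a median log2 ratio of -0.36 against -0.07 over all genes. Among 23 S phase genes 1 was lower and 0 higher, with a median of -0.18. A UMI of Mki67, Top2a or Cdk1 was present in 34.2% of tdT-high and 43.7% of tdT-negative cells without thinning. Ccnd1, cyclin D1, which drives entry into the cycle, stood at 36.2 and 10.0 CPM (3.61-fold lower, 3.08 to 4.25). Of 20 cholesterol synthesis genes 3 were 1.5-fold lower (Msmo1, Nsdhl and Hsd17b7) and 0 higher, where 2.69% of all genes were lower, and the median log2 ratio was -0.34. All 46 nuclear genes of oxidative phosphorylation stayed within 1.5-fold, with a median of -0.26. The mitochondrial genome was uneven: mt-Nd3, mt-Co2, mt-Co3 and mt-Atp8 were higher, with mt-Co3 at 427 and 665 CPM, while mt-Cytb had a log2 ratio of -0.33. The same 4 transcripts were also higher in tdT-high cells of MyoFB-IMR and MyoFB-Ter, though not all 4 by 1.5-fold in MyoFB-Ter. Of the 12 counted mitochondrially encoded genes, 6 were 1.5-fold higher in MyoFB-IMR and 3 in MyoFB-Ter. Lists of the unfolded protein response, immediate early genes, interferon response, p53 and senescence, Notch and glucocorticoid response had 0 members past 1.5-fold.

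Among genes of modest level ranked in the same way, without the transgene TDT, Unc5c had the highest ratio. After Unc5c and Gt(ROSA)26Sor came Thrb, the phosphodiesterase gene Mpped2 (5.12 and 39.7 CPM), Fgf9, the amino acid transporter Slc16a10 (2.89 and 20.2 CPM), Gja1, the glutamate receptor subunit Grin2b (2.30 and 12.8 CPM), Scx, Mfap5, Prrx1 and Mfap3l. Lowest was Scgb1a1, the secretoglobin of airway club cells, at 11.4 and 0.82 CPM. That gene stood at 18.0 CPM in AdvFB cells and 9.37 CPM in MyoFB-IMR cells of the tdT-negative library, so it was present at a like level in types that do not make it. Stc1, Fam162b (36.4 and 9.48 CPM), Ccnd1, Rapgef4 (18.0 and 4.98 CPM), Thsd4 (33.7 and 10.1 CPM), Enho, Gpc3, Ptges, Slc9a9, Lyz2 and Hgf (25.3 and 9.70 CPM), which encodes hepatocyte growth factor, completed the lowest 12. Lyz2, a macrophage gene, stood at 9.79 and 3.34 CPM.

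**Figure D3:**
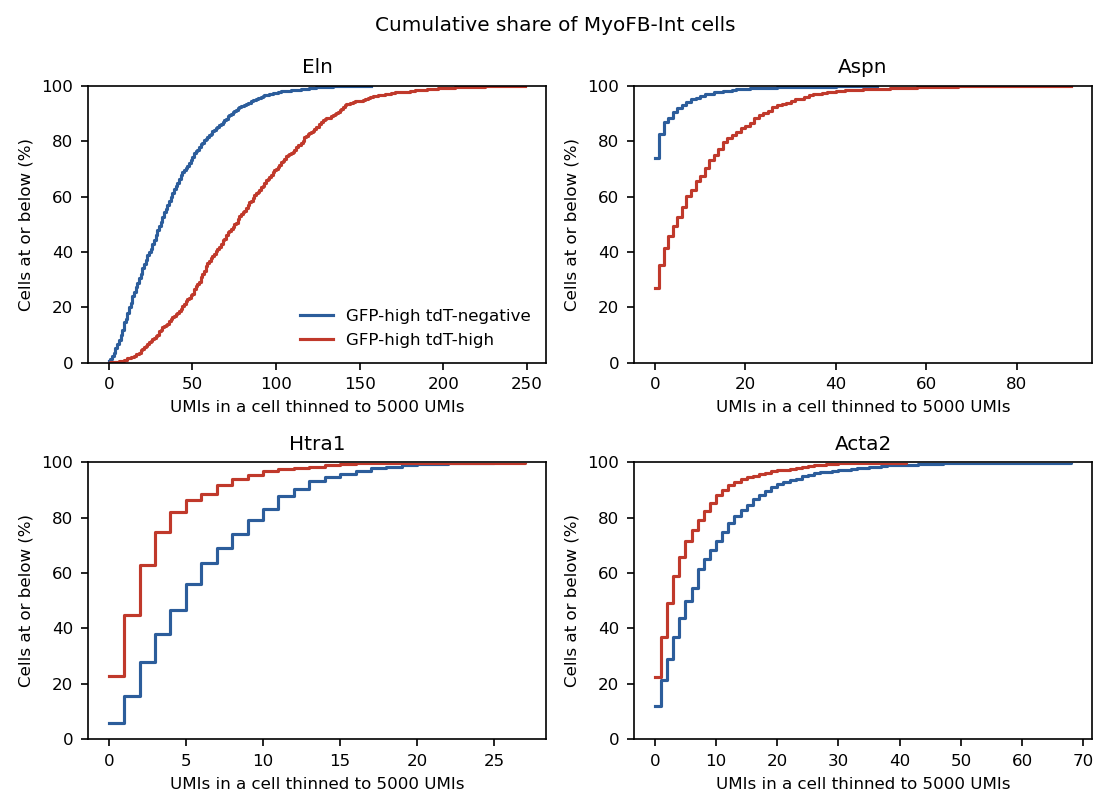
The step lines give the cumulative percent of MyoFB-Int cells, 1324 tdT-negative in blue and 801 tdT-high in red, against the UMIs of a gene in a cell thinned to 5000 UMIs. The whole distribution of Eln lies to the right in tdT-high cells, with a median of 76 against 31 UMIs, while Aspn was present in 585 tdT-high and 344 tdT-negative cells.

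Cell by cell, the matrix differences were of different kinds. Eln was present in nearly every cell, and the median cell held 76 UMIs per 5000 in tdT-high and 31 in tdT-negative cells, with 95th percentiles of 153 and 87. For Aspn the median cell held 5 UMIs in tdT-high cells and 0 in tdT-negative cells, and the tenth of tdT-negative cells with most Aspn held 79.6% of that library's thinned Aspn UMIs, against 39.1% in tdT-high cells. Htra1 had a median of 2 UMIs in tdT-high and 5 in tdT-negative cells, and Acta2 of 3 and 6. The ranges overlapped for all 4 genes. Aspn was seen after thinning in 585 of 801 tdT-high and 344 of 1324 tdT-negative cells (unthinned 86.5% and 38.4%), and in 82.3% of AdvFB cells, which make it too.

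**Figure D4:**
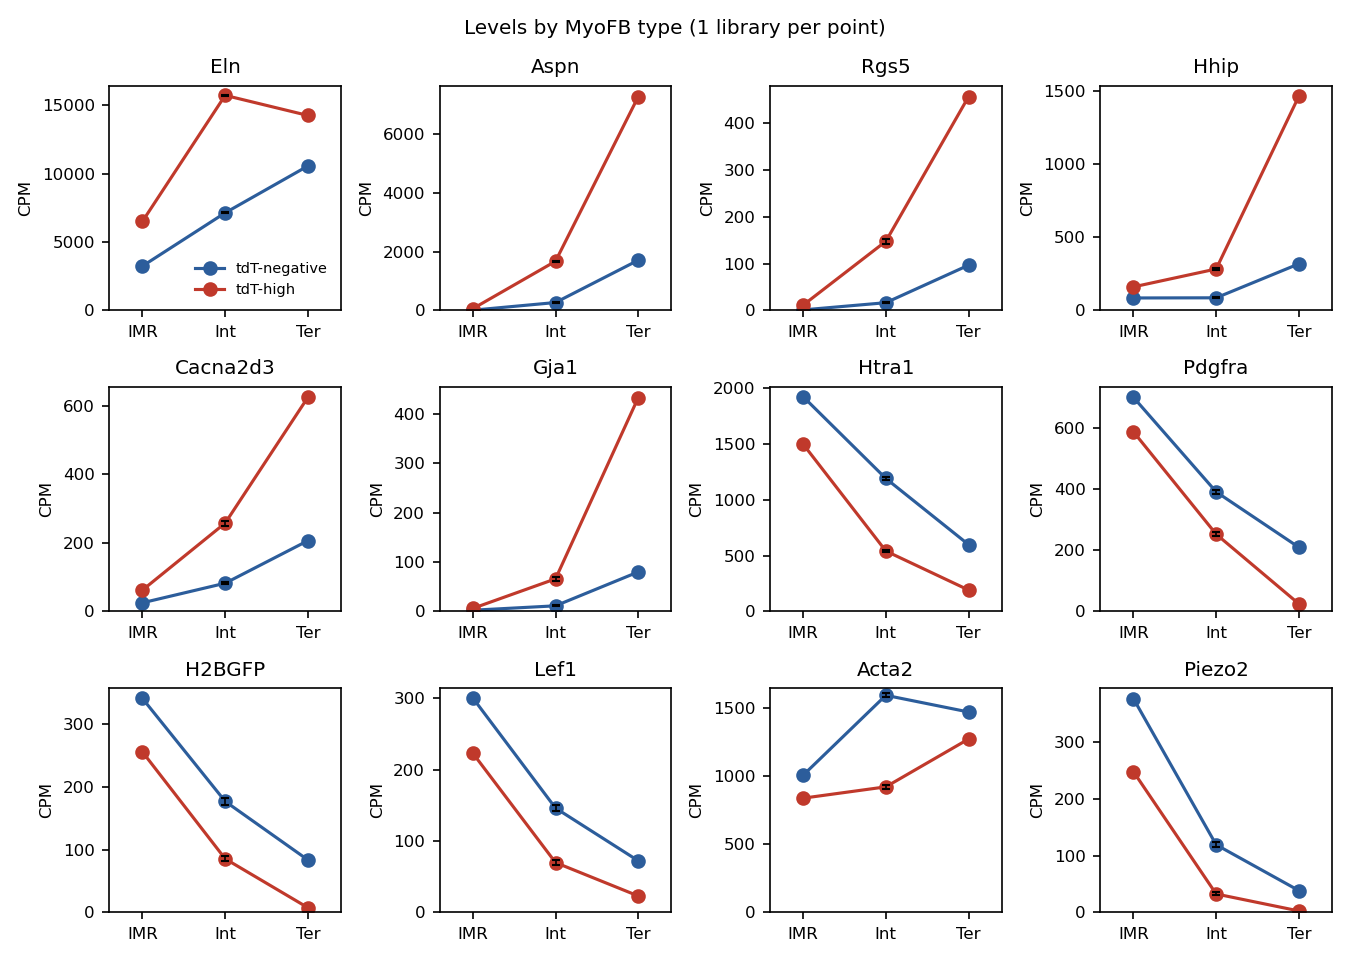
CPM of 12 genes is plotted for MyoFB-IMR, MyoFB-Int and MyoFB-Ter cells of the tdT-negative (blue) and tdT-high (red) libraries, 1 library per point, with the 95% counting interval drawn at MyoFB-Int. Aspn, Rgs5, Hhip, Cacna2d3 and Gja1 are highest and Htra1, Pdgfra, H2BGFP, Lef1 and Piezo2 lowest in MyoFB-Ter, in both libraries.

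The neighbouring types of the same libraries put these levels on a scale. In the tdT-negative library Aspn stood at 8.59 CPM in MyoFB-IMR, 268 in MyoFB-Int and 1708 in MyoFB-Ter, and in the tdT-high library at 58.8, 1673 and 7272 CPM. The tdT-high MyoFB-Int cells lay close to the tdT-negative MyoFB-Ter cells for Aspn. For Rgs5 the 3 levels were 1.13, 16.5 and 96.4 CPM in the tdT-negative and 11.2, 147 and 456 CPM in the tdT-high library. For Htra1, which ran downwards, they were 1922, 1190 and 598 CPM and 1497, 540 and 191 CPM. Eln differed from this order: the tdT-high MyoFB-Int cells, at 15714 CPM, stood above the MyoFB-Ter cells of both libraries, at 10556 CPM in tdT-negative and 14246 CPM in tdT-high cells. Acta2 was also not ordered, being highest in tdT-negative MyoFB-Int cells (1596 CPM), against 1473 CPM in tdT-negative MyoFB-Ter and 1008 CPM in tdT-negative MyoFB-IMR cells.

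The ratios themselves differed by type for some genes. Unc5c had a log2 ratio of 3.12 in MyoFB-Int, -0.58 in MyoFB-IMR and 1.10 in MyoFB-Ter, at levels of 4.02 and 2.37 CPM in MyoFB-IMR. Thrb had 2.82, 0.45 and 2.01, and Mfap5 1.94, 0.06 and 2.38. Aspn had like ratios in MyoFB-Int (6.23-fold) and MyoFB-IMR (6.85-fold, 5.79 to 8.14) and a smaller one in MyoFB-Ter (4.26-fold, 4.16 to 4.36). The median log2 ratio of the small leucine-rich proteoglycans was 0.60 in MyoFB-Int, 0.46 in MyoFB-IMR and -0.68 in MyoFB-Ter. That of the contractile genes was -0.28, -0.04 and 0.09. Elastic fibre genes had medians of 0.40, 0.18 and 0.37, collagens 0.35, 0.39 and 0.48, and matricellular genes 0.37, 0.39 and 0.23. Over the same 11147 genes, 2.86% were higher and 0.942% lower in MyoFB-IMR, and 6.68% higher and 11.5% lower in MyoFB-Ter, where 190 tdT-high and 303 tdT-negative cells were compared. Whether the types differ in their response to the label was not tested, since each has 1 library a side.

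**Figure D5:**
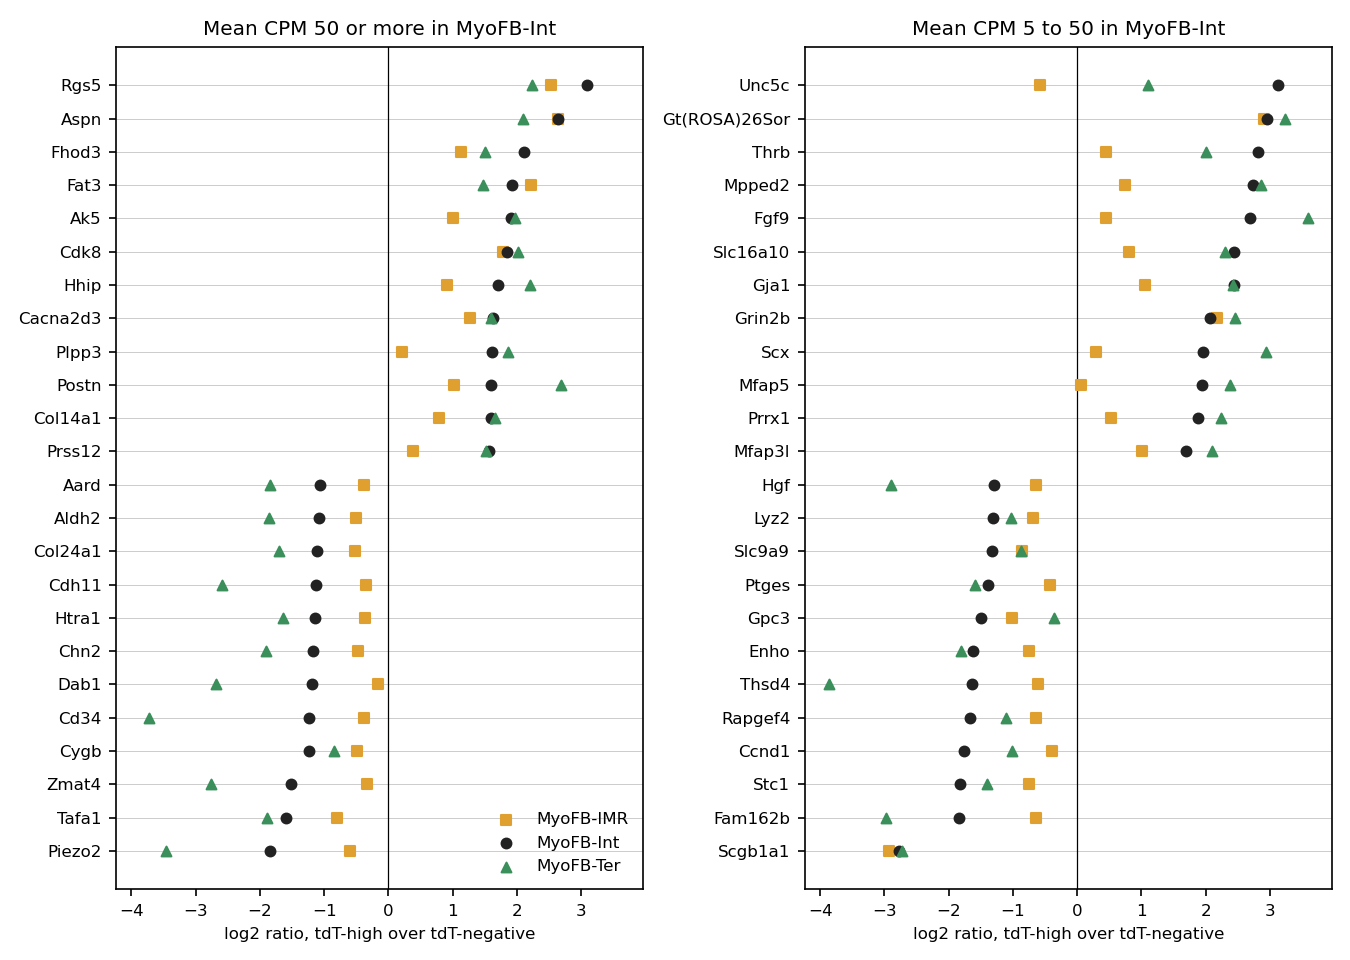
For the 12 highest and 12 lowest genes of each level tier in MyoFB-Int, the log2 ratio of tdT-high over tdT-negative cells is plotted in MyoFB-IMR (squares), MyoFB-Int (circles) and MyoFB-Ter (triangles). Most of the lower genes at 50 CPM or more lie nearest 0 in MyoFB-IMR and farthest down in MyoFB-Ter, as Piezo2 does.

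Within single clusters, differences were smaller for some genes and larger for others than over the whole type. In clusters 4, 13, 12 and 16, in that order, the log2 ratio of Rgs5 was 1.93, 2.21, 3.23 and 2.19, that of Aspn 1.65, 0.85, 3.06 and 1.19, and that of Eln 0.78, 0.46, 1.19 and 0.69. Hhip had 2.21, 1.77, 0.83 and 1.96, Gja1 1.20, 1.83, 1.61 and 1.05, and Lef1 -0.61, -0.55, -0.93 and -0.96. Ccnd1 was lower in each, between -1.71 and -0.94. Col14a1 and Postn were near 0 in cluster 12, at 0.06 and 0.04, and Thrb and Myocd had the opposite sign there, at -0.36 and -0.43. The FGF response genes were not alike: Etv1 was lower in each of the 4 clusters, between -0.64 and -0.43, while Etv5 and Spry4 stood at 0.15 and 0.21 in cluster 12 and Etv4 at 0.18 in cluster 16. When the tdT-negative clusters were weighted to the shares of the tdT-high cells, 371 of the 376 higher genes and 294 of the 300 lower genes kept their sign, and 220 and 103 of them still passed 1.5-fold. By this measure more of the lower genes than of the higher genes lost 1.5-fold when the mixture of clusters was made alike. The clusters were made from variable genes of the same cells, without the transgenes, so genes compared here can help to define them. The part of this in the loss was not tested.

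Cells of 1 library were also split by whether they held a tdTomato UMI. In the tdT-high library, 509 cells with and 292 cells without a TDT UMI had Eln at 15690 and 15766 CPM, Aspn at 1623 and 1781 CPM and Htra1 at 541 and 538 CPM. Other genes were less alike: Piezo2 stood at 36.2 CPM (32.9 to 39.7) with and 24.5 CPM (20.7 to 28.9) without a TDT UMI, and Hhip at 268 and 317 CPM. These intervals leave out the spread between cells, against which the differences were not tested. The tenth of tdT-high cells with most of each gene held 95.3% of the thinned Piezo2 UMIs and 61.9% of those of Hhip. In the tdT-negative library, the 124 cells with a TDT UMI had Eln at 8360 CPM (8256 to 8465) against 6981 CPM (6948 to 7015) in the 1200 without, and Rgs5 at 27.2 against 15.2 CPM. Piezo2 stood at 81.6 and 124 CPM in the same cells, and Aspn at 242 and 272 CPM. The tdT-negative cells with a TDT UMI had a median of 22896.5 UMIs and those without 19146.5, and in the tdT-high library the medians were 23743 and 19437.5. The part of these depth differences in the values was not tested.

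The GFP-low tdT-negative library, sorted from pups of the same genotype, held 22 MyoFB-Int cells. They carried Aspn at 1217 CPM (1124 to 1316), Rgs5 at 111 CPM (83.8 to 143), Gja1 at 50.5 CPM (33.0 to 74.0) and Htra1 at 513 CPM (453 to 578), values near the tdT-high side although these cells were sorted as unlabelled. Eln, at 10284 CPM, and H2BGFP, at 118 CPM, lay between the GFP-high libraries, and Acta2, at 1462 CPM, near the tdT-negative side. Cdk8, at 4207 CPM, also matched the tdT-high side.

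Markers of other cell types differed in level. The summed level of the listed epithelial, immune and erythroid markers was at most 15.9 CPM in either group, that of mesothelial markers 25.7 CPM in tdT-negative and 40.7 CPM in tdT-high cells, of endothelial markers 117 and 105 CPM, and of alveolar fibroblast markers 887 and 1088 CPM (2 of 9 counted higher and 2 lower), with Nkx2-1 at 0 in both and Ptprc at 0 in tdT-negative cells. The AdvFB share was 9.80% in the tdT-negative and 0.265% in the tdT-high library. Their gene Dcn, decorin, stood in MyoFB-Int at 8.09 CPM in tdT-negative and 5.31 CPM in tdT-high cells, 0.132% of its level of 6117 CPM in the AdvFB cells. Of 6 counted adventitial markers 4 were higher in tdT-high MyoFB-Int cells, Col14a1, Dpt (26.9 and 69.6 CPM), Mfap5 and Col15a1, and 1 was lower, Cd34 (219 and 92.7 CPM). Gpc3 was lower (15.2 and 4.77 CPM), and its level in tdT-negative MyoFB-Int cells was 0.618% of the 2467 CPM in AdvFB cells. Leaving out 134 genes that were over 10 times higher in AdvFB or MatFB cells left 331 genes higher and 290 lower. The part of free RNA in these values, and in those of Scgb1a1 and Lyz2, was not tested.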

How the data were processed

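Single cells of 3 sorted libraries were profiled by droplet RNA sequencing, and 2 of the libraries are compared here. The deposited matrix holds raw UMI counts for 31730 genes and 6142 cells, with a deposited table that gives each cell's type, its UMI count and its mitochondrial percent. The percent values are as the authors deposited them and were not used for a result. The submitters' processing notes name Cell Ranger 7.0.0 and mm10. The labels do not say whether doublets were removed before deposit, and no doublets were called or removed here. Counts were summed over the MyoFB-Int cells of each library and divided by their total. Ratios are plain ratios of CPM, with exact 95% counting intervals, and log2 ratios use CPM plus a pseudocount of 1. UMI intervals and floors cover counting error only. Genes with a mean of at least 5 CPM were counted, and 1.5-fold was the size used for a call. To compare shares of cells, each cell was thinned to 5000 UMIs.

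The members and the 43 gene lists and 11 marker lists were chosen with earlier results of these data known. Genes set to be named were the 12 highest and 12 lowest of each level tier, up to 4 members of a list farthest past 1.5-fold and its 2 most abundant members, and a set always given. Not all of these are given above. Many abundant members that did not pass 1.5-fold, such as Ltbp2, Col1a2 and Bgn, were left out. The genes shown therefore lean towards those that differ. The tier ranks leave out transgenes, mitochondrial, ribosomal protein and haemoglobin genes, Xist, Tsix, Y-linked and unnamed genes. Other genes with values, such as Fbn1, Fbn2, Fgfr1, Tbx5, Pdgfrb, Notch3, Dcn and Dpt, were chosen after their values were seen. Clusters come from a Leiden clustering of all cells. On simulated Poisson counts for this comparison over 11147 genes, all 52 genes set 2-fold higher and all 45 set 2-fold lower were called, and 0 of 10947 unchanged genes. The simulation held counting error alone, so it gives no rate of false calls under spread between cells, animals or sorts. The 95% intervals held the set ratio for 89.8% of 49 genes set 3-fold lower and for 95.3% of unchanged genes. Coordinates are from GENCODE on GRCm38 and promoter windows from RefSeq on GRCm38.p6. The tools were scanpy 1.11.5, pandas 2.3.3, scipy 1.17.1, numpy 2.4.6 and matplotlib 3.10.9 under Python 3.11.15. Scaling factors for the alternatives came from edgeR 4.0.16 and DESeq2 1.42.0 in R 4.3.3. Alternatives covered scaling, pseudocount, filter, thinning, cell subsets and clusters.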

Additional observations from a re-analysis of the deposited data

How the results depend on the processing

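No paired analysis was possible because each side is 1 library. The count of higher genes stayed within 1.5 times 376, and of lower genes within 1.5 times 300, with TMM or DESeq2 scaling, totals without mitochondrial, ribosomal and haemoglobin genes, means over cells, stricter cell limits, cells with only Y-linked transcripts, cells chosen by their tdTomato UMI, cells without proliferation transcripts, and without 134 genes far higher in other fibroblasts. TMM put 60.7% of the calls on the higher side, against 55.6% in the main count. With cells thinned to 5000 UMIs, 532 genes were lower, and 442 genes of modest level were higher and 424 lower. A pseudocount of 5 gave 243 higher and 162 lower (modest level 156 and 91), no filter beyond 10 UMIs 860 and 583 (768 and 504), and a mean of at least 20 CPM 173 and 145 (81 and 66). Cells with only Xist gave 506 lower, with 432 higher and 426 lower at modest level. Single clusters, with fewer cells, gave 450 and 396 genes of modest level in cluster 4, 633 higher and 451 lower in cluster 13 (583 and 413), 611 and 765 in cluster 12 (541 and 700), and 1006 and 940 in cluster 16 (902 and 800). Weighting the clusters alike, chosen after seeing the data as were clusters 13, 12 and 16, left 131 lower, 109 of them at modest level. Log2 ratios of named genes took the opposite sign in some subsets. In cells with only Xist these were Cdon -0.44 and Ptger4 -0.16. In cluster 4 these were Fras1 0.31, Sema3a 0.095, Sox6 0.33, Omd -0.0036 and Fgfr4 0.15. In cluster 13 they were Rgs16 -0.43, Fn1 -0.045, Lamc3 0.15, Bmp2 0.18, Pdgfc -0.087, Tafa1 0.096, Nid2 0.25, Slc9a9 0.53, Sox9 -0.56, Sox11 0.044 and Hhipl1 -0.12. In cluster 12 they were Plxna2 0.19, Fmod 0.26, Mpped2 -0.25, Ece1 -0.17, Col15a1 -0.40, Kcnj8 -0.32, Cnn2 0.038, Thrb -0.36, Cdon -1.08, Myocd -0.43, Sox11 0.079, Flrt2 -1.15, Hhipl1 -0.15, Cdh18 -0.49, Etv5 0.15 and Spry4 0.21. In cluster 16 they were Pappa2 -0.56, Thbs1 -0.16, Ptger3 -0.17, Frem1 0.34, Nbl1 0.0049, Pdgfra 0.083, Fras1 1.34, Sema3a 0.084, Tafa1 0.86, Sox6 0.94, Stc1 0.0069, Loxl1 -0.048, Etv4 0.18, Ogn -0.21, Cdh18 -0.018, Tnxb -0.011 and Gata6 -0.32, and with weighted clusters Fras1 0.055. The median of the adventitial markers was -0.17 in cluster 12 and that of the small leucine-rich proteoglycans -0.024 in cluster 16. The cause was not tested. Excluding cells with 3 or more G2 and M genes was not run, since 14 tdT-high and 23 tdT-negative cells would have been left. A gene with 0 UMIs allows up to 0.111 CPM in tdT-negative and 0.164 CPM in tdT-high cells.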
